A study of Mus musculus with 714 samples.

Results

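Ltf, which encodes lactoferrin, and Clu, which encodes clusterin, were followed through the postnatal growth of the mouse uterine epithelium. They are 2 of the 12479 genes in the count table and were taken by name, with earlier results of these data known. The table holds 714 single cells of the 960 that had been sorted. All cells came from the uterus of ICR mice, an outbred strain, were taken by sorting on CD326 (EpCAM), an adhesion protein of epithelial cells, and were read by CEL-seq, which counts the 3′ ends of the transcripts of each cell. No treatment or mutation is named, and the groups differ in age: postnatal day 0 (pnd0) with 24.2% of the cells, pnd7 with 37.4%, pnd14 with 24.2%, pnd28 with 7.84% (56 cells) and pnd56 with 6.30% (45 cells).

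Lactoferrin is a secreted iron-binding protein of the transferrin family that starves microbes of iron, and is stored in neutrophil granules as well as released by many epithelia. In the mouse uterus it is a classical oestrogen-induced product of the epithelium. Clusterin, also called apolipoprotein J, is a secreted chaperone that holds unfolded proteins in solution outside the cell and blocks assembly of the complement membrane attack complex. Both leave the cell through the secretory pathway.

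The start of the Ltf gene is shown because the gene is known for its hormone control in this tissue. The 250 bases before the RefSeq start site lie on the plus strand at chr9:111019042-111019291 of build GRCm38.p6. Capitals mark AGGTCA, which starts 46 bases before the start site, and ATAAA, which starts 30 bases before it.
Ltf promoter: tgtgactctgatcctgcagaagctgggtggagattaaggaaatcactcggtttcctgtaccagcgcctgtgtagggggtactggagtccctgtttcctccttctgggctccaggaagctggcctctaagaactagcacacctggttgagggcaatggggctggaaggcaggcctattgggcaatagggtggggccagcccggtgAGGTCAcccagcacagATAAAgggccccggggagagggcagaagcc
AGGTCA is the letter sequence of a nuclear receptor half-site and ATAAA is a short TATA-like word. Searched on both strands of the 300 bases that run from 250 before to 50 after each start site, AGGTCA was found in 16.3% and ATAAA in 40.01% of 32851 mouse promoters. ATTGG, the inverted form of a CCAAT box, occurred once, 76 bases before the start, and in 37.4% of all promoters. No match in the Ltf window was found for GGTCANNNTGACC, the letters of a full oestrogen response element (0.0700% of promoters), for TGANTCA of an AP-1 site (7.81%), for TATAAA (13.6%) or for GGGCGG of a GC box (35.7%). These are matches of letters only. Sequence further than 250 bases before the start and imperfect forms of these words were not searched, so the absence of a match holds for this window alone. ATAAA overlaps none of the other words in this window. The Ltf gene spans bases 111019292 to 111042766 of chromosome 9 and Clu spans bases 65968483 to 65981548 of chromosome 14 in that build, and RefSeq lists no other gene within 2 kb of either. The submitters' processing notes name mm9 and their table holds no coordinates, so these positions only describe the genes.

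Each age is 1 sample, because no label ties a cell to an animal. A level is the sum of a gene over the cells of an age per 1000000 counts of all genes (CPM). No test was made between ages, and every interval given here is a 95% interval. Those of levels and ratios are of counting error alone, which is narrower than the spread between cells. Those of shares and their differences treat cells as independent draws, although the cells of an age are 1 sample. None holds the spread between animals. The ages sum to 582615, 732957, 354047, 96248 and 81894 counts in order of age, and the median cell held 3037, 2492, 1782, 1600 and 1670 counts. Cells fall into 10 blocks of 96 consecutive title numbers, here called runs, each of 1 age. The labels do not say what the blocks are, and age and run cannot be told apart, with pnd28 and pnd56 resting on 1 run each. A count of Krt18, an epithelial keratin, was found in 98.8%, 98.9%, 91.9%, 78.6% and 91.1% of the cells, and one of Epcam, the gene of the sorted protein, in 50.9%, 44.2%, 34.1%, 28.6% and 53.3%. At pnd14, 12 cells, and at pnd28 1 cell, held at least 3 of the 4 measured smooth muscle genes Myl9, Des, Cnn1 and Mylk, against none at the other ages.

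Ltf was near the limit of detection up to pnd7 and abundant from pnd28. Only 13 counts at pnd0 and 23 at pnd7 were Ltf. Its level was 22.3 CPM (interval 11.9 to 38.2) at pnd0, 31.4 CPM (19.9 to 47.1) at pnd7, 474.5 CPM (405.5 to 551.9) at pnd14, 2068 CPM (1790 to 2376) at pnd28 and 2882 CPM (2526 to 3274) at pnd56. The pnd0 and pnd7 intervals overlapped, and each later age lay above the interval of the one before. Runs of the same age stood close together, at 16.9 and 27.9 CPM for pnd0, 24.6, 34.1 and 35.2 CPM for pnd7, and 443.9, 459.2 and 507.9 CPM for pnd14. The lowest run of pnd14 was thus above the highest of pnd7.

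Clu started from a higher point in its own range and changed later. Its level was 247.2 CPM (208.4 to 291.0) at pnd0, 191.01 CPM (160.7 to 225.4) at pnd7, 418.02 CPM (353.4 to 491.1) at pnd14, 1787 CPM (1530 to 2075) at pnd28 and 1929 CPM (1640 to 2255) at pnd56. Its runs gave 203.1 and 292.5 CPM at pnd0, 151.9, 292.2 and 151.4 CPM at pnd7, and 355.1, 627.6 and 384.2 CPM at pnd14. Runs of pnd0 and pnd7 overlapped, the 3 runs of pnd14 lay above all of them, and pnd28 and pnd56 overlapped in their intervals.

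**Figure D1:**
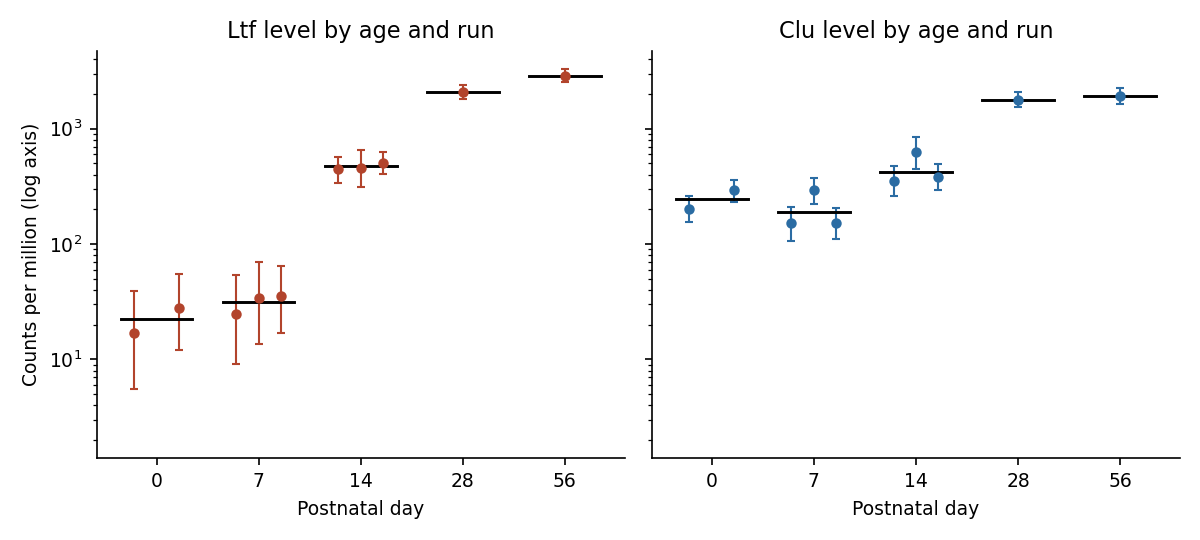
Level of Ltf (left) and Clu (right) in CPM on a log axis against postnatal day. Points are runs with exact Poisson 95% intervals and black lines are the level over all cells of an age. Ltf lies under 36 CPM in every run up to pnd7 and at 443.9 to 507.9 CPM at pnd14, while Clu passes 1000 CPM only at pnd28 and pnd56.

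The step from pnd7 to pnd14 was 15.1-fold for Ltf (interval 9.75 to 24.5, log2 ratio 3.92) and 2.19-fold for Clu (1.73 to 2.78, log2 ratio 1.13). Among the 5553 genes with at least 20 counts over both ages, 0.954% had a ratio as high as that of Ltf and 8.79% one as high as that of Clu. Of those genes, 10.7% were at least 2-fold higher at pnd14 and 14.3% at least 2-fold lower. With every cell thinned to 1500 counts, which left out the 60 shallowest cells of pnd14 and 13 of pnd7, the log2 ratio was 3.17 for Ltf and 0.51 for Clu. Clu was thus past 2-fold only without thinning. Thinning drops shallow cells, weighs the rest equally and draws counts at random, and which of these lowers the values was not tested. The pnd14 cell with the most Ltf was among those dropped, with 27 counts or 28361 CPM.

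From pnd14 to pnd28 both genes were higher by a similar factor, 4.36-fold for Ltf (3.53 to 5.38, log2 ratio 2.12) and 4.28-fold for Clu (3.41 to 5.36, log2 ratio 2.10). Of 3785 genes, 2.62% had a ratio as high as that of Ltf and 2.75% one as high as that of Clu, where 11.9% were at least 2-fold higher and 23.2% at least 2-fold lower. A single pnd28 cell held 54 Clu counts, 31.4% of all. Without it the Clu log2 ratio was 1.60, with each cell weighing the same it was 1.57, and at 1500 counts per cell it was 2.82. At that depth Ltf gave 2.45.

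Between pnd28 and pnd56 Ltf was 1.39-fold higher (1.15 to 1.69, log2 ratio 0.48) and Clu 1.08-fold higher (0.864 to 1.35, log2 ratio 0.11). Of 1797 genes, 14.8% were at least 2-fold higher and 16.5% at least 2-fold lower in this step, and neither gene was among them. The Ltf value was 0.22 without the cell of the highest count and 0.92 at 1500 counts per cell. Clu gave −0.08 without its highest cell and −0.04 at 1500 counts per cell, so its direction here is not settled at this depth.

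Between pnd0 and pnd7 Ltf had a log2 ratio of 0.49 with an interval of −0.55 to 1.60 and Clu one of −0.37 with an interval of −0.72 to −0.03. In this step 4.94% of 5953 genes were at least 2-fold higher and 7.61% at least 2-fold lower. The sign for Ltf turned to −0.22 without the 1 cell that held the most counts at pnd7. The Clu value was −0.09 without run 2 of pnd0. From birth to adulthood, pnd56 over pnd0, Ltf was 129.2-fold higher (74.1 to 246.2) and Clu 7.81-fold higher (6.19 to 9.85). Ltf ranked 27 and Clu 79 among 4725 genes, of which 10.3% were at least 2-fold higher and 27.4% at least 2-fold lower. The 5 comparisons share ages, and the middle gene of all those measured had a log2 ratio of −0.03, −0.10, −0.23 and 0.06 in the successive steps and of −0.34 for pnd56 over pnd0.

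The share of cells with a Ltf count changed along with the level up to pnd28. After thinning to 1500 counts, Ltf was found in 3 cells at pnd0 (1.83%, interval 0.379 to 5.25), 5 at pnd7 (1.97%, 0.642 to 4.53), 19 at pnd14 (16.8%, 10.4 to 25.01), 20 of 33 at pnd28 (60.6%, 42.1 to 77.1) and 12 of 25 at pnd56 (48%, 27.8 to 68.7). Without thinning the shares were 2.89%, 2.996%, 16.8%, 62.5% and 48.9%. The pnd28 and pnd56 intervals overlapped, and pnd14 lay below both and above the earlier ages. Run 4 of pnd14 stood at 27.8% with 18 cells, against 15.9% and 13.7% in runs 3 and 7.

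Cells with Ltf held most of it at pnd56. The mean thinned count in positive cells was 2, 2.60, 2.74, 4.15 and 9.92 in order of age, where the first values rest on 3 and 5 cells. Thinned to 1000 counts the means were 1.5, 1.6, 3.76, 3.28 and 6.53, and the median without thinning was 2, 1, 3, 3 and 6.5, so the order of pnd14 and pnd28 depends on the depth. From pnd28 to pnd56 the share of positive cells went from 60.6% to 48%, with overlapping intervals, and the mean count in them from 4.15 to 9.92. The higher level at pnd56 thus came with more counts per positive cell. With 2 counts required the share went from 36.4% to 44%, so the direction of the share depends on the count required. A few cells carried much of the signal. The 3 highest cells held 76.9% of all Ltf counts at pnd0, 78.3% at pnd7, 35.7% at pnd14, 44.7% at pnd28 and 48.3% at pnd56. In run 6 of pnd7 all 7 counts came from 1 cell.

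Clu behaved otherwise at the early ages: more cells held it, with few counts each. At equal depth it was found in 35 cells at pnd0 (21.3%), 39 at pnd7 (15.4%), 18 at pnd14 (15.9%, interval 9.72 to 24.002), 18 of 33 at pnd28 (54.5%, 36.4 to 71.9) and 17 of 25 at pnd56 (68%, 46.5 to 85.1). Pnd14 did not stand above pnd0 or pnd7 in share. The mean thinned count in positive cells was 1.71, 2.03, 2.78, 5.72 and 4.47. The 3 highest cells held 22.2%, 22.9%, 23.6%, 59.3% and 35.4% of the Clu counts, so pnd28 was the age at which single cells weighed most.

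**Figure D2:**
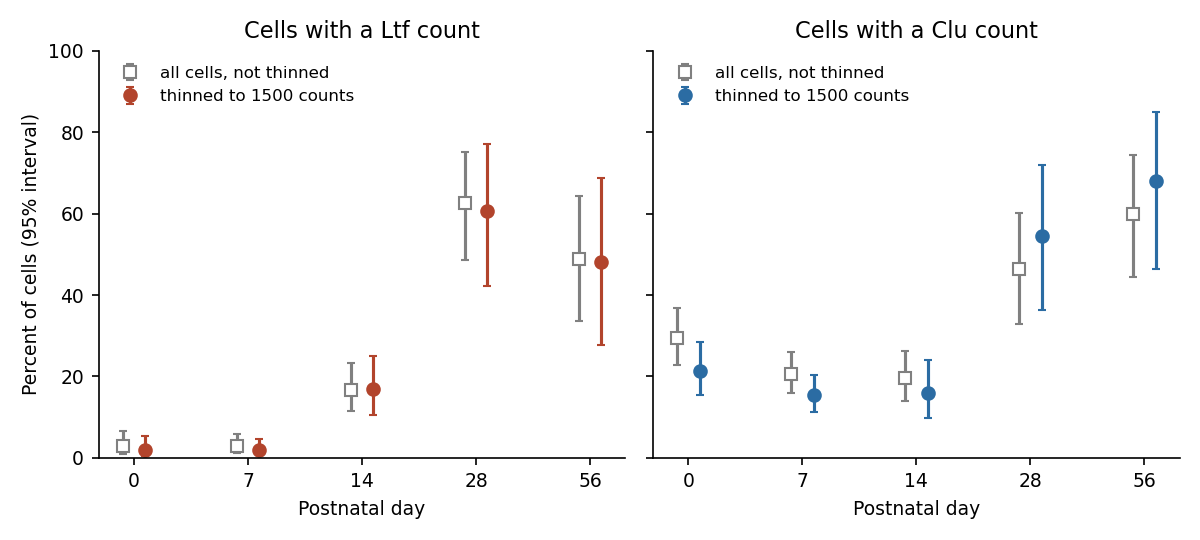
Percent of cells with at least 1 count of Ltf (left) and Clu (right) against postnatal day, with exact Clopper-Pearson 95% intervals. Filled points are cells thinned to 1500 counts and open squares are all cells without thinning. Ltf goes from 1.83% to 60.6% between pnd0 and pnd28, and Clu stays between 15.4% and 21.3% until pnd14.

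With 2 counts required, the Ltf shares were 0.610%, 0.787%, 7.96%, 36.4% and 44% and the Clu shares 8.54%, 8.66%, 10.6%, 33.3% and 52%. Shares in the smooth muscle-like cells were read as a gauge of free RNA. At pnd14 0 of the 12 had a Ltf or a Clu count, which allows a share of up to 25%, with a median of 1887 counts per cell and Krt18 in 4 and Epcam in 2 of them. Among the other cells of pnd14, with a median of 1782 counts, 18.01% had Ltf and 21.1% had Clu. With only 2 of the 4 muscle genes required, 22 cells of pnd14 included 3 with Ltf and 3 with Clu, and the 41.6% of pnd14 cells with any count of these genes held 47.02% of the Ltf and 60.1% of the Clu counts. The 1 muscle-like cell of pnd28 had 3 Clu counts, and of the 4 pnd28 cells with 2 of the genes 2 had a single Ltf count each and 2 had Clu. At pnd56 there was no such cell. The limit of 25% at pnd14 lies above both shares of the other cells, so the gauge could not set those shares apart from background RNA. Background RNA at pnd28 and pnd56 could not be bounded either. The shares at these ages are therefore of cells with a count, not of cells that express the gene.

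Both genes were found in the same cell at every age, but at pnd0 and pnd7 in 1 cell each and only without thinning or at 2000 counts. At 1500 counts no cell of these ages had both, which says little where 3 and 5 cells had Ltf. At pnd14, 6 cells had both, 13 Ltf alone, 12 Clu alone and 82 neither. At pnd28, 13 had both, 7 Ltf alone, 5 Clu alone and 8 neither. At pnd56, 9 had both, 3 Ltf alone, 8 Clu alone and 5 neither.

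Clu was found in 31.6% of the pnd14 cells with Ltf (interval 12.6 to 56.6) and in 12.8% of those without (6.77 to 21.2). The difference was 18.8 percentage points with a Newcombe interval of 0.628 to 41.8, and it was 30.2 points (12.5 to 48.5) without thinning. The median depth before thinning was 2159 counts in cells with Ltf and 2166 in cells without, and each of the 3 runs held 2 of the 6 cells with both. With 2 counts required for each gene the shares were 55.6% and 6.73%, and at each depth tried the interval left out 0. At 1500 counts with 1 count required, the interval of each single run held 0. The differences were 17.8 points (−6.88 to 53.9) in run 3, 32.3 (−5.82 to 69.8) in run 4 and 12.7 (−11.7 to 49.1) in run 7. At pnd28 the shares were 65% (40.8 to 84.6) and 38.5% (13.9 to 68.4), a difference of 26.5 points (−7.35 to 53.3). At pnd56 they were 75% (42.8 to 94.5) and 61.5% (31.6 to 86.1), a difference of 13.5 points (−21.6 to 44.1). At these ages the values depended on the setting. With 2 counts required the pnd28 shares were 58.3% and 19.05%, a difference of 39.3 points (5.595 to 64.4), and the pnd56 difference was 4.55 points (−30.7 to 38.1). At pnd28 Clu was in 51.4% of the cells with Ltf without thinning and in 46.9% at 1000 counts, and with 2 counts required in 40% and 26.3%, so whether most cells with Ltf held Clu there is not settled. The pnd56 difference was −12.5 points (−49.1 to 29.1) at 2000 counts. Whether the ages differ in this was not tested.

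**Figure D3:**
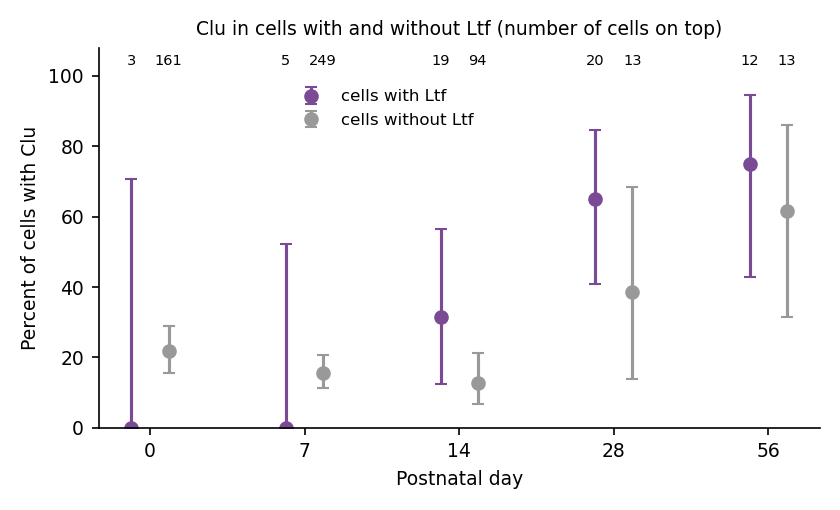
Percent of cells with a Clu count among cells with Ltf (purple) and without Ltf (grey) at each age, thinned to 1500 counts, with exact Clopper-Pearson 95% intervals and the number of cells on top. At pnd14, pnd28 and pnd56 the purple point is above the grey one, with overlapping intervals.

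The counts within cells give more detail. The 5 pnd14 cells with the most Ltf had 27, 17, 16, 15 and 11 counts, and all of them held Clu, at 4, 9, 6, 8 and 8 counts. At pnd28 the 5 highest Ltf cells had 37, 29, 23, 13 and 10 counts, with Clu at 0, 0, 6, 6 and 0. At pnd56 the highest had 47, 34, 33, 28 and 15 counts, with Clu at 1, 23, 6, 9 and 0. High Ltf cells without Clu were therefore present at pnd28 and pnd56.

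Seen from Clu, the 5 highest pnd28 cells had 54, 29, 19, 11 and 6 counts with Ltf at 0, 5, 0, 2 and 6. At pnd56 they had 23, 18, 15, 12 and 11 counts with Ltf at 34, 0, 6, 1 and 0. Over thinned cells, the Pearson correlation of log2(count + 1) was 0.44 at pnd14, 0.28 at pnd28 and 0.18 at pnd56, over cells that share a library, of which there were 33 at pnd28 and 25 at pnd56. These are descriptions, and in counts this sparse a weak correlation shows little.

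**Figure D4:**
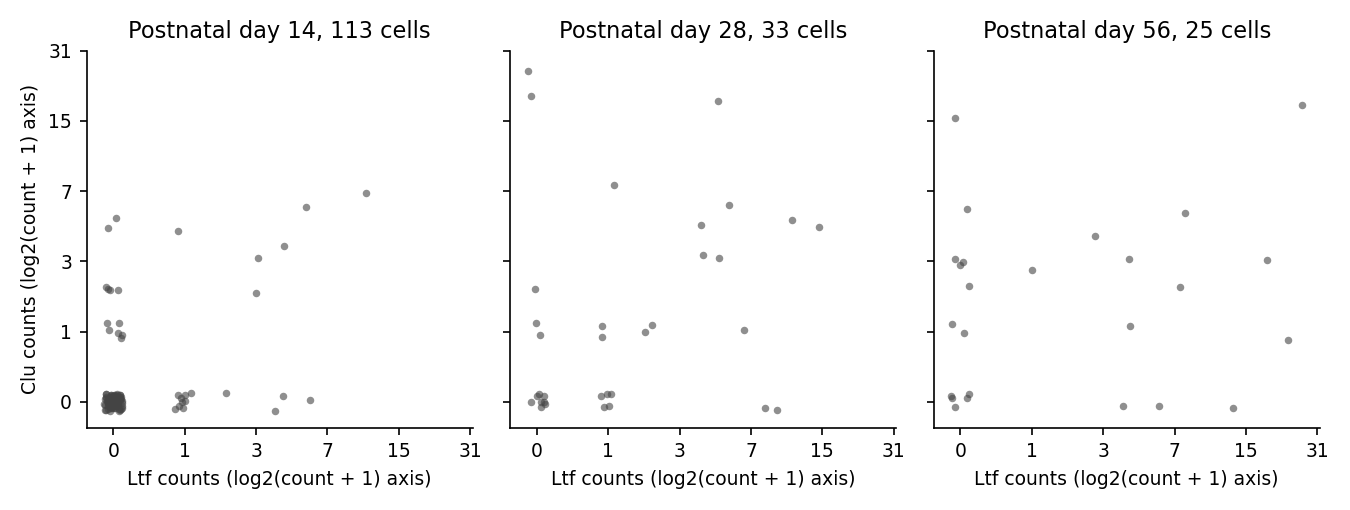
Thinned counts of Clu against Ltf in single cells of pnd14, pnd28 and pnd56, both on a log2(count + 1) axis with a small sideways shift so that cells do not hide each other. Most pnd14 cells sit at 0 for both genes, and at pnd28 and pnd56 cells high in one gene and at 0 for the other stand beside cells that hold both.

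Other genes separated the cells with Ltf from those without, at equal depth and within an age. At pnd14 Wfdc18, a small secreted whey acidic protein, had a count in 47.4% of the cells with Ltf and 8.51% of those without. Muc1, the main membrane mucin of the uterine surface, was found in 26.3% against 8.51%. Ovgp1, the oviductal glycoprotein, was found in 63.2% against 26.6%. Gata2, a transcription factor gene of the progesterone response, ran the other way, with 21.1% against 58.5%. Esr1, which encodes oestrogen receptor alpha, was found in 36.8% against 35.1%.

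At pnd28 Car2, a carbonic anhydrase, had a count in 15 of 20 cells with Ltf and 3 of 13 without, and Muc1 in 8 against 1. Epithelial genes were also higher in those with Ltf: Krt18 gave 7.5 against 2.08 counts per cell, Cldn7 1.5 against 0.385 and Krt7 1.8 against 0.538. Cldn3 gave 2.9 against 2.46 and Epcam 0.55 against 0.538, with Epcam found in 25% against 38.5%. The split by Ltf at pnd28 was thus also one by several epithelial genes. At pnd56 Cbr2, a carbonyl reductase, was found in 12 of 12 cells with Ltf and in 46.2% of the others, at 18.8 against 2.38 counts per cell. Sprr2b, a cornified envelope protein of the luminal surface, gave 24.2 against 2.15 counts per cell. Spink12, a gland marker, was found in 50% of the cells with Ltf and 23.1% of those without. Klk1, a secreted tissue kallikrein, had a count in 8.33% of the cells with Ltf and 46.2% of those without. Epcam itself was found in 83.3% against 30.8% of pnd56 cells, so the split by Ltf at pnd56 was also one by a count of this gene. Other epithelial genes did not all follow it. Cldn3 was in 83.3% against 38.5%, Krt18 in 91.7% against 84.6% and Cdh1 in 41.7% against 38.5%. Cldn7 was in 75% against 100% and Krt7 in 50% against 76.9%. Reads of the Sprr2 genes may be shared among near-identical copies. The gland marker list has 7 genes in the table, Spink12 among them. At pnd56, 5 of the 7 had 0 counts. Without thinning, 40% of pnd56 cells had a count of the list and held 86.4% of the Ltf and 48.1% of the Clu counts. Spink12 alone was also in 40% of pnd56 cells, so this is no result apart from Spink12. At pnd28 94.6% of the cells had a count of the list, and at pnd14 7.51%, with 11.9% of the Ltf counts. At pnd28 and 1500 counts, Prss28 of the list gave 2.95 counts per cell with Ltf and 15.4 without. Prss29 gave 10.65 against 27.4 and Spink12 0.1 against 3.46. Without the highest cell, the values without Ltf were 2.67, 4.92 and 0.0833, so these directions rest on 1 cell each. A count of the luminal marker list was in 100% of pnd56 cells.

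Divided by Clu in place of Ltf, the cells gave partly other genes. At pnd14 Ovgp1 was 10.7 counts per cell with Clu and 3.27 without, and 5.82 with Clu when the cell with the most Ovgp1 was left out. At pnd28 Hsp90b1, a chaperone of the endoplasmic reticulum, was found in 7 of 18 cells with Clu and in 0 of 15 without, and Pigr, the polymeric immunoglobulin receptor, gave 17 counts against 1, with 7 of the 17 in 1 cell. At pnd56 Prap1, a secreted proline-rich acidic protein, averaged 26.4 counts per cell with Clu and 12.8 without, and Spp1, which encodes osteopontin, 4.76 against 1.38. Without the cell with the most counts, the values with Clu were 19.3 for Prap1 and 2.44 for Spp1. With Ltf as the divider Prap1 averaged 21.5 against 22.5 counts per cell, and Spp1 1.33 against 5.85. The same cells lay on the side without Ltf, where the values were 12.8 and 2.83 when they were left out, so these contrasts rest largely on 1 cell each. These genes were named after their values were seen.

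Genes with a run profile like that of Ltf were ranked by the Pearson correlation of log2(CPM + 10) over the 10 runs among 3394 genes. Cbr2 came first with r = 0.988, followed by B2m (0.959), Vim (0.953), Ifi27 (0.937), Plet1 (0.936), Col3a1 (0.929), Tmcc3 (0.927) and Col1a2 (0.927). Clu was in place 16 with 0.911. For Clu the first genes were Anxa8 (0.953), Gsto1 (0.948), Zfand5 (0.944), Perp (0.944), Gng12 (0.938), B2m (0.934) and Ass1 (0.911), and then Ltf. Runs of an age share that age, so these are likenesses over 5 ages at most.

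Those genes with a like profile over runs that are also cell type markers were compared within an age as well. Col3a1, a fibrillar collagen of stroma, gave 0 counts in pnd56 cells with Ltf and 27 in those without, but 1 cell held 22 of the 27. At pnd28 it gave 0 against 18 counts, in 4 cells, and at pnd14 it was in 10.5% against 10.6% of the cells. Col1a2 gave 1 against 22 counts at pnd28 and 0 against 25 at pnd56, 21 of them in 1 cell. By share of cells at pnd28, Col3a1 was in 0% of those with Ltf and 30.8% of those without, and Col1a2 in 5% and 23.1%. Other stroma genes differed from this in share: Dcn, the proteoglycan decorin, was in 60% and 46.2%, and Vim, the filament protein vimentin, in 25% and 23.1%. In counts per cell they were lower with Ltf, Dcn at 2.4 against 4.31 and Vim at 0.55 against 0.923. Without the cell with the most Dcn, the Dcn value without Ltf was 1.92. Cbr2 lay with Ltf at pnd56 and gave 6.25 counts per cell with Ltf against 3.62 without at pnd28.

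Ltf and Clu were set beside 7 gene lists, from which both were left out. Of the 23 other genes known to answer to oestrogen in the uterus, 10 were measured with at least 20 counts between pnd0 and pnd7, and 4 were at least 2-fold higher and 0 lower, with a median log2 ratio of 0.87. From pnd7 to pnd14, when Ltf was 15.1-fold higher, 1 of 11 was higher and 6 were lower, with a median of −1.29. The 1 that was higher was C3, a complement component with 0 counts at pnd7 and 21 at pnd14, at least 14.5-fold higher against a floor of 3 counts over the age. Prap1 had a log2 ratio of −2.44 and Sprr2b one of −2.92 in the same step. Lower members were thus 6 of 11, where 14.3% of all genes were lower. Sprr2a2, Sprr2b, Sprr2f and Sprr2g were among the 6. Their reads may be shared, so they do not count as independent members.

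The list turned after pnd14. At pnd28 6 of 8 measured members were higher than at pnd14 and 1 was lower, with a median of 1.93, and from pnd28 to pnd56 10 of 10 were higher, with a median of 3.59, where 14.8% of all genes were. Prap1 stood at 44.6, 61.4, 11.3, 727.3 and 12419 CPM over the 5 ages, and Sprr2f at 13.7, 28.7, 11.3, 415.6 and 6899 CPM. Muc1 stood at 379.3, 319.3, 192.1, 592.2 and 2064 CPM and Car2 at 51.5, 225.1, 237.3, 883.1 and 3321 CPM. Over the whole span, 10 of 12 were higher and 1 lower, with a median of 5.79. Ltf and Clu differed from most of the measured members in the step from pnd7 to pnd14 and in that from pnd28 to pnd56. Ltf was higher at pnd14, when 6 of 11 members were at least 2-fold lower and 1, C3, was higher as Ltf was. From pnd28 to pnd56 Ltf and Clu had log2 ratios of 0.48 and 0.11, while the lowest of the 10 was Sprr2g with 1.58.

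**Figure D5:**
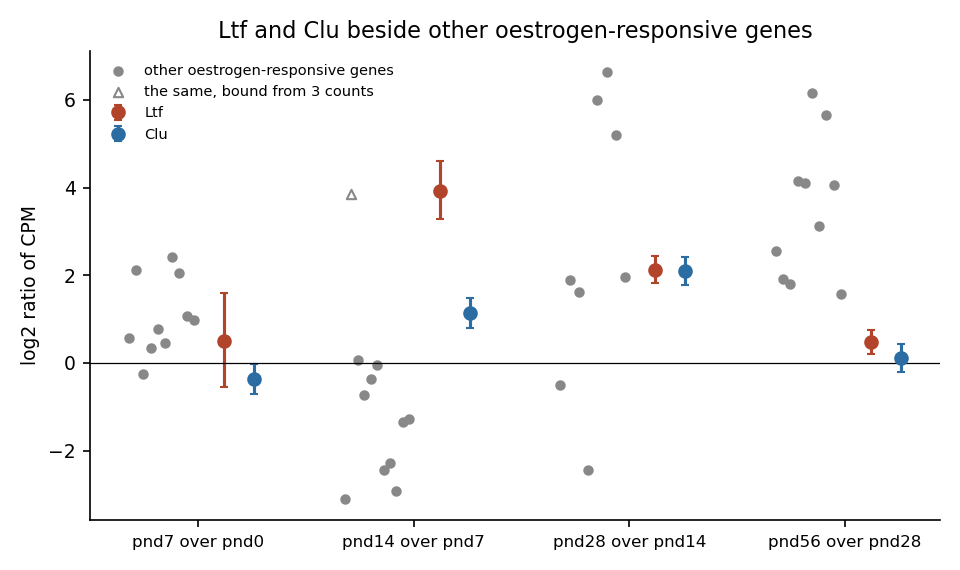
Log2 ratio of CPM for 4 successive age steps, with Ltf and Clu (with 95% intervals) beside the other measured oestrogen-responsive genes (grey), where the triangle is a bound from a floor of 3 counts. At pnd14 over pnd7 Ltf is at 3.92 and the median of the grey genes at −1.29, and at pnd56 over pnd28 all 10 grey points lie above Ltf and Clu.

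The receptor side of the pathway was set apart as steroid receptors and cofactors. Esr1 gave 17.2 CPM at pnd0, 92.8 at pnd7, 468.9 at pnd14, 374.0 at pnd28 and 512.9 at pnd56. Its level was thus 5.05-fold higher at pnd14 than at pnd7 and showed no further step beyond its interval, which for pnd56 over pnd28 ran from −0.22 to 1.14 on the log2 scale. Pgr, the progesterone receptor, gave 34.3, 58.7, 56.5, 10.4 and 36.6 CPM from 20, 43, 20, 1 and 3 counts, too few at the late ages for a direction. Of the list, 1 of 6 members was at least 2-fold higher from pnd0 to pnd7 and 3 of 7 from pnd7 to pnd14, with 0 lower in either. From pnd14 to pnd28 3 of 7 were higher and 3 lower, Gata2 being lower with a log2 ratio of −3.01. From pnd28 to pnd56 0 of 2 passed 2-fold, and over the whole span 2 of 5 were higher and 2 lower.

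The other secreted antimicrobial and mucosal proteins had 3 of 7 measured members higher and 1 lower from pnd7 to pnd14, 4 of 8 higher and 1 lower from pnd14 to pnd28, and 7 of 9 higher from pnd28 to pnd56. Their medians were −0.37, 1.05 and 1.92, and 5 measured members gave 1 higher and a median of 0.35 from pnd0 to pnd7. Wfdc18 stood at 42.3 CPM at pnd7, 392.6 CPM at pnd14, 93.5 CPM at pnd28 and 354.1 CPM at pnd56. Its intervals at pnd14 (330.1 to 463.6) and pnd56 (237.2 to 508.6) overlapped. Wfdc2, an abundant protease inhibitor of the epithelium, stood at 6296 CPM at pnd14 and 8759 CPM at pnd28. Pigr had 0 counts at pnd14 and 384.4 CPM at pnd28, at least 45.4-fold higher against the floor. Over the whole span 8 of 9 were higher, with a median of 6.10, and Wfdc2 was the 1 lower. C3, Muc1, Muc4, Prap1 and Lcn2 are in this list and in the oestrogen list, so their counts overlap. The same minimum count decides which members are measured.

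Iron handling, the setting of lactoferrin's own biochemistry, had few members past 2-fold. Of the transferrin family and iron genes, 1 of 9 was at least 2-fold higher and 1 lower in each of the first steps, from pnd0 to pnd7 and from pnd7 to pnd14. Later 1 of 7 was higher from pnd14 to pnd28, 1 of 5 from pnd28 to pnd56 and 2 of 8 over the whole span, with 0 lower. The medians were 0.15, 0.62, 0.07, 0.30 and 0.48. Fth1, the ferritin heavy chain, stood at 1740, 1943, 3025, 4374 and 2296 CPM, and Tfrc, the transferrin receptor, between 24.4 and 73.4 CPM. Cp, which encodes the copper-bound iron oxidase ceruloplasmin, was the member higher from pnd14 to pnd28, with a log2 ratio of 2.20. Ftl1 and Ftl2 are near-identical and cannot be told apart with certainty.

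Clusterin's company in the secretory pathway was measured in the chaperones of the endoplasmic reticulum. None of 14 was 2-fold higher or lower from pnd0 to pnd7 and none of 13 from pnd7 to pnd14, with medians of 0.15 and 0.19. From pnd14 to pnd28, where Clu was 4.28-fold higher, 4 of 10 were higher and 1 was lower, with a median of 0.80, against 11.9% of all genes. Among the 4, Hspa5, the chaperone BiP, had a log2 ratio of 2.09, and Pdia3 and Pdia6, disulphide isomerases, had 2.49 and 1.91. From pnd28 to pnd56 0 of 8 were higher and 1, Pdia3, was lower, with a median of −0.32. Over the whole span 2 of 11 were higher and 1 lower, with a median of 0.64.

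Complement genes were few. From pnd7 to pnd14 2 of 4 were at least 2-fold higher, C3 and Cfb, and 1 was lower, Cd59a, with a log2 ratio of −1.28. Cd59a encodes a membrane inhibitor of the same attack complex that clusterin blocks in fluid, and it stood at 408.5, 431.1, 177.9, 114.3 and 97.7 CPM over the 5 ages, so it was lower from pnd14 on. No member passed 2-fold among 3 measured from pnd0 to pnd7 or among 4 from pnd14 to pnd28. From pnd28 to pnd56 2 of 3 were higher, and over the whole span 3 of 4 were higher and 1, Cd59a, was lower. Of the receptors that bind lactoferrin or clusterin, 0 of 3 passed 2-fold from pnd0 to pnd7, and 1 of 4 was higher and 1 lower from pnd7 to pnd14. The higher was Lrp2, the endocytic receptor megalin, which binds both proteins. It gave 0, 2, 23, 0 and 0 counts, so it was seen at pnd14 in numbers and not detected at pnd28 or pnd56 at this depth. From pnd14 to pnd28 0 of 2 were higher and 2 lower, none was measured from pnd28 to pnd56, and 0 of 2 passed 2-fold over the whole span.

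Markers of other cell types were read beside these results. Neutrophils store lactoferrin, and 6 of 12 neutrophil markers have a row in the table: S100a8, S100a9, Mpo, Ly6g, Csf3r and Mmp8. They summed to 4, 3, 2, 0 and 6 counts over the 5 ages, and the cells with such a count held 0, 0, 9, 0 and 13 of the Ltf counts. Cells with a count of the leukocyte genes Ptprc, Csf1r or Tyrobp held 0%, 0%, 29.2%, 7.54% and 20.8% of the Ltf counts. They were 8.09%, 7.12%, 5.20%, 10.7% and 13.3% of the cells. The oviduct marker list, in which Ovgp1, Cbr2, Pax8, Wfdc18 and Ccdc78 have a row, stood at 341.6, 335.6, 4511, 3564 and 7424 CPM. At pnd14, 92.9% of the Ltf counts lay in the 74.6% of cells with such a count. Ovgp1 itself stood at 144.2, 40.9 and 2271 CPM and then had 0 counts at pnd28 and pnd56. Cbr2, of the same list, stood at 32.6, 68.2, 1474, 3252 and 6826 CPM. The stroma list, with 7 of 8 genes in the table, stood at 39.5, 120.1, 765.4, 3325 and 2857 CPM. Both lists were higher at pnd14 than at pnd7, as Ltf and Clu were. From pnd14 to pnd28 the oviduct list was lower and the stroma list higher. From pnd28 to pnd56 the oviduct list was higher and the stroma list lower. At pnd56, 7 cells with a stroma count held 8.05% of the Ltf and 12.7% of the Clu counts. At pnd28, 39 of 56 cells had one and held 57.3% of the Ltf and 92.4% of the Clu counts. The part of the leukocyte, oviduct and stroma signals in the levels of Ltf and Clu at pnd14 and pnd28 was not tested.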

How the data were processed

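The deposited table holds whole-number counts per gene and cell, and the authors gave no normalized value with it. The submitters' processing notes name TopHat, Cuffnorm and mm9, without roles or versions. The sources used here do not say whether molecular identifiers were collapsed. Every column matched a cell title, and each cell was placed by its labelled age. Counts were summed per age or run and scaled to counts per 1000000 (CPM). The cells number 173, 267, 173, 56 and 45 in order of age, of which 164, 254, 113, 33 and 25 reach 1500 counts. Ltf has 13, 23, 168, 199 and 236 counts and Clu 144, 140, 148, 172 and 158. Intervals at 95% were exact Poisson for levels and exact conditional binomial for ratios, and these cover counting error only. They were Clopper-Pearson for shares and Newcombe for differences of shares, and these take cells as independent draws. Ratios were ranked among genes with 20 counts or more in the pair of ages, and a floor of 3 counts per age gave bounds at 0. For equal depth each cell was thinned once to 1500 counts without replacement (seed 1), with shallower cells left out.

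Named were Ltf and Clu, any member of the fixed lists, and the 8 genes most like each by correlation of log2(CPM + 10) over runs among genes with at least 100 counts. Genes that divide cells with and without Ltf or Clu come from the lists and the cell type markers, with at least 10 thinned counts at that age. The members and lists were chosen with earlier results of these data known, so a pattern among them is no independent support. The routines were tested on simulated data with known answers. Python 3.11.15, NumPy 2.4.6, pandas 2.3.3, SciPy 1.17.1, statsmodels 0.14.6 and Matplotlib 3.10.9 were used. Promoters came from RefSeq on GRCm38.p6, of which 1 of the 2 genes matched. Alternatives were another scaling, equal weights per cell or run, other depths and minimum counts, and leaving out runs, the highest cell or muscle-like cells.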

Additional observations from a re-analysis of the deposited data

How the results depend on the processing

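Each age is 1 sample and pnd28 and pnd56 are 1 run each, so depth and cell number, 33 and 25 cells at 1500 counts, limit every value there. No paired analysis was possible because each age is 1 sample and the cell numbers pair nothing. Of the values recomputed for ratios, shares, cells with both genes and most alike genes, 24 (9.92%) moved beyond their interval or by over 1.5 times. No ratio or difference whose interval left out 0 changed sign, and 4 recomputed values did where the interval held 0: the Ltf ratio of pnd7 over pnd0 (−0.22 without the highest cell), the Clu ratio of pnd56 over pnd28 (−0.08 without it and −0.04 at 1500 counts) and the pnd56 difference in Clu share between cells with and without Ltf (−12.5 points at 2000 counts); the alternative without cells with 2 or more smooth muscle genes was added after seeing the data. For the moved values the cause was not tested, except that thinning leaves out shallow cells and a minimum of 2 counts lowers any share. Thinning to 1500 counts gave log2 ratios for Ltf of 3.17 (pnd14 over pnd7), 2.45 (pnd28 over pnd14) and 0.92 (pnd56 over pnd28), and for Clu of 0.51 and 2.82 in the first 2 of these steps. For Clu, equal weight per cell gave 1.57 for pnd28 over pnd14 and 0.43 for pnd56 over pnd28, and leaving out the highest cell gave 1.60 for the former. With 2 counts required, the Ltf share was 7.96% at pnd14 and 36.4% at pnd28, and the Clu share 8.54% at pnd0, 8.66% at pnd7 and 33.3% at pnd28. Both genes were then in 21.2% of pnd28 cells, and the Clu share of pnd14 cells with Ltf exceeded that of the others by 48.8 points. Run 4 alone gave a Ltf share of 27.8% at pnd14. Without thinning the Clu share was 29.5% at pnd0 and 20.6% at pnd7. Of the 8 genes most like Ltf, 5 were shared over ages in place of runs, 2 with Spearman, 4 with a pseudocount of 1 and 5 with a minimum of 200 counts; of the 8 for Clu, 2 were shared over ages and 1 with Spearman. Of the recomputed list counts 30 moved by over 1.5 times, and of 20 background percentages 8 did. At pnd7 over pnd0 these were 9.52% higher and 14.8% lower with a minimum of 5 counts, and 2.57% and 3.30% with 50. With a minimum of 5 counts, 17.6%, 21.1% and 26.6% of genes were higher for pnd14 over pnd7, pnd28 over pnd14 and pnd56 over pnd0, and with 50 counts 10.8% were lower for pnd56 over pnd28. Of the oestrogen list, 3 in place of 6 members were lower from pnd7 to pnd14 with a minimum of 50 counts.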
